A study of Mus musculus with 6 samples.

Results

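ESRRB regions near 7 genes of the LIF and STAT3 pathway (Lifr, Il6st, Jak1, Stat3, Socs3, Pim1 and Pim3) were followed in mouse embryonic stem cells that left the naive state. A region is an interval of a deposited peak list, and it was taken as near a gene when any of its summits lay within 100 kb of the gene span in mm10. This gave 35 of 13767 regions in 2iL, 22 of 10970 at 48 h and 18 of 7018 at 96 h. ESRRB was mapped by ChIP-seq, in which DNA bound to a protein is isolated with an antibody (here a mouse monoclonal against ESRRB) and sequenced. The cells were of the E14 line. They were kept in N2B27 medium with 2iL, which is CHIR99021 at 3 µM to block GSK3, PD0325901 at 1 µM to block MEK, and the cytokine LIF, or were collected 48 h or 96 h after 2iL was replaced by N2B27 alone. LIF and both inhibitors were withdrawn together, so their effects cannot be told apart. A single ESRRB library stood for each condition, without replicates, and 3 input libraries were not analysed here. No expression values were used here, so the state of the cells was not checked against marker genes.

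LIF binds its receptor LIFR, which pairs with the shared subunit gp130 (the product of Il6st) and activates the kinase JAK1. JAK1 phosphorylates STAT3, which enters the nucleus and switches on target genes, among them Socs3, whose product shuts the receptor complex down, and the kinase genes Pim1 and Pim3. In mouse embryonic stem cells this pathway sustains self-renewal, and ESRRB, an orphan nuclear receptor that binds an extended AAGGTCA motif as a monomer, belongs to the same naive network.

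The strength of a region is given as fold enrichment, the authors' value of summit reads divided by those of the local background, at the highest summit of the region. Fold and p-value together gave back the whole number of reads at every summit, and the 95% intervals of folds below come from those reads and cover counting error only. Median reads at a region's highest summit were 51, 68 and 45 from 2iL to 96 h. The lowest background of a library, called its floor here, was 5.04, 8.09 and 5.84 reads. Whether it follows library depth was not tested. Conditions were not tested against each other, since none had a replicate. Where no region was called, ESRRB may have been present below the threshold.

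Sequence was at hand for the RefSeq promoter windows of GRCm38.p6, from 250 bases before to 50 after a listed gene start, and all 7 genes matched, with 2 windows each for Lifr and Pim1. The 250 bases before the start are shown for the 3 genes with an ESRRB region over a listed start, since each had it in different libraries. Capitals mark TGACCTT, which is AAGGTCA on the other strand. The Lifr window (chr15:7129322-7129571, plus strand) was overlapped in 2iL and at 48 h, the Pim3 window (chr15:88861944-88862193, plus strand) in 2iL alone, and the Jak1 window (chr4:101265224-101265473, minus strand) at 96 h alone.
Lifr: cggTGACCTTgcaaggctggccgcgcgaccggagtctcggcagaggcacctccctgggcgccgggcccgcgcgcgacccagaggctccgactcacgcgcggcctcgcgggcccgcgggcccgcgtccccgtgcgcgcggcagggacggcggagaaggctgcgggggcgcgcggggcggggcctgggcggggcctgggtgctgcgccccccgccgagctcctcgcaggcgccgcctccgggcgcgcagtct
Pim3: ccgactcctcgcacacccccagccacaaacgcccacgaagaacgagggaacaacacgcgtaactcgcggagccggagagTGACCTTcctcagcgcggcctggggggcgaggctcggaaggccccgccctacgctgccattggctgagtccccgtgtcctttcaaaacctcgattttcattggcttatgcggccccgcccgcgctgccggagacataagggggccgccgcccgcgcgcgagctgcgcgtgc
Jak1: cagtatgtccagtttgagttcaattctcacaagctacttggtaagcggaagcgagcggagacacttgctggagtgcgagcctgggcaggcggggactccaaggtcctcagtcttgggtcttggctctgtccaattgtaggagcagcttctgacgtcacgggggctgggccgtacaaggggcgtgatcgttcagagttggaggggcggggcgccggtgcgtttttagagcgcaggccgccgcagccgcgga

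The match before Lifr (7129325 to 7129331) lay 71 bp from the 2iL summit and 54 bp from the 48 h summit. The match before Pim3 (88862023 to 88862029) lay 78 bp from the 2iL summit. The Jak1 window held no AAGGTCA. Nor did the second Pim1 window (chr17:29492835-29493134), which a 2iL region overlapped without covering the start. Both strands were searched for 4 motifs, AAGGTCA and TCAAGGTCA (which contains it) for estrogen-related receptors and TTCNNNGAA and TTCCNGGAA (a narrower form of it) for STAT factors. Of all 32817 windows of 300 bases, 4.72% held AAGGTCA. The share was 18.2% (95% interval 15.3 to 21.3) of the 683 windows that held a 2iL summit and 4.38% (4.15 to 4.61) of the 30665 windows that overlapped no region in any library. It was 25.7% (21.3 to 30.4) of the 374 windows with a 48 h summit and 22.7% (18.3 to 27.7) of the 321 with a 96 h summit. Most windows with a summit thus lacked it, as the Jak1 window did. TTCNNNGAA was in 8.29% of all windows and in 7.47% (5.61 to 9.70) of those with a 2iL summit. Among the windows of the 7 genes it was found once, as TTCTTAGAA before Socs3 (chr11:117969512-117969520), and no region lay over that window. TCAAGGTCA and TTCCNGGAA were in none of the 9 windows of the 7 genes, against 0.424% and 1.15% of all windows.

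Within 100 kb in 2iL, ESRRB regions were denser around Socs3, Pim1 and Pim3 than around Lifr, Il6st, Stat3 and Jak1. Socs3 had 10 regions, Pim1 and Pim3 had 8 each, Lifr 6, Il6st 2, Stat3 1 and Jak1 none. Per 100 kb of searched sequence this was 4.90 regions for Socs3, 3.93 for Pim3, 3.90 for Pim1, 1.96 for Lifr, 0.824 for Il6st and 0.396 for Stat3, against a median of 0.496 over 21887 protein-coding genes. The density at Socs3 was above that of 99.8% of protein-coding genes in 2iL, at Pim3 above 99.0% and at Pim1 above 99.0%. This order rests on the wide window, since within 10 kb Lifr had 5 regions of 2iL, Socs3 2, Il6st, Stat3, Pim1 and Pim3 1 each and Jak1 none. Counted for the protein-coding gene nearest to the highest summit only, Lifr had 6, Socs3 5, Pim1 4 and Pim3 none. The 2iL region over the Pim3 start was not counted for Pim3 there, since its highest summit lay 246 bp before Pim3, inside Gm33049. At 96 h the densities within 100 kb were 2.94 for Socs3, 2.44 for Pim1, 0.983 for Pim3 and 0.978 for Lifr. Il6st had 0.412 and Jak1 0.319, against a median of 0.346 over protein-coding genes, and Stat3 had no region. Socs3 was then above 99.6% of protein-coding genes, Pim1 above 98.7% and Pim3 above 85.3%. A region lay near 6 of the 7 genes in each library. For all protein-coding genes the shares were 69.8%, 64.7% and 54.0% in the same order. All 7 had one in at least 1 library, beside 76.6% of protein-coding genes.

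**Figure D1:**
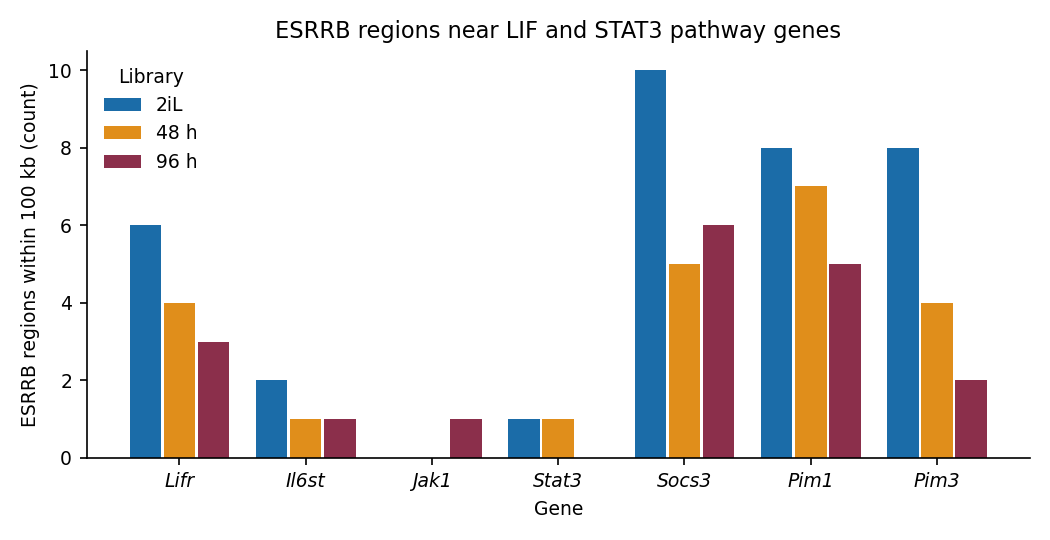
Number of ESRRB regions with a summit within 100 kb of each gene (y axis, count) for 7 genes (x axis), with 1 bar per library (2iL, 48 h and 96 h, 1 library each, no error bar). Socs3 had 10, 5 and 6 regions and Pim3 8, 4 and 2, while Jak1 had 1 region, at 96 h.

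Of the 6 genes with a region in 2iL, 5 had fewer at 48 h and all 6 had fewer at 96 h. Among all protein-coding genes with a 2iL region, 55.8% had fewer at 48 h and 74.4% at 96 h. Within 100 kb none of the 6 had more at either time, beside 18.1% and 6.70% of all such genes. This depended on how regions were assigned. Within 10 kb, Pim3 had 1, 2 and 2 regions from 2iL to 96 h. By nearest protein-coding gene, Pim1 had 4, 5 and 4 and Pim3 0, 2 and 1. No other gene of the 6 had more than in 2iL under these settings. Of the 35 regions of 2iL, the 48 h list held 14 (40%, exact 95% interval 23.9 to 57.9), beside 50.7% of all 2iL regions. The 96 h list held 12 (34.3%, 19.1 to 52.2), beside 35.0%. Both later lists held 11 of them (31.4%, 16.9 to 49.3, background 31.3%), and neither held 20 (57.1%, 39.4 to 73.7, background 45.6%). Each background share lay inside the interval beside it. Merged over the 3 lists, the regions near the 7 genes made 46 places, of which 11 (23.9%) were called in all 3 libraries, beside 22.9% of all 18634 merged places. Another 20 were specific to the 2iL list (43.5%, beside 33.7% of all merged places). The 48 h list alone held 5 (10.9%, beside 15.5%) and the 96 h list alone 3 (6.52%, beside 5.37%). A further 3 were shared by the later lists without 2iL (6.52%, beside 5.92%). Read the other way, 14 of 22 regions of 48 h (63.6%, background 63.5%) and 12 of 18 of 96 h (66.7%, background 69.5%) overlapped one of 2iL.

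Strong and weak regions of 2iL are given apart. Of the 7 with a fold of at least 10, the 48 h list held all 7 (59.0 to 100%) and the 96 h list 6 (42.1 to 99.6%), and both intervals held the background. The shares for all 1831 such regions of 2iL were 80% and 67.2%. Of the 28 weaker ones the 48 h list held 7 (25.0%, 10.7 to 44.9) and the 96 h list 6 (21.4%, 8.30 to 41.0), beside 46.2% and 30.1% of all 11936 weaker regions. The 48 h interval for the weaker regions lay below the background share. That interval takes regions as separate draws, although they lay near only 6 genes. Of the 20 regions of 2iL called at neither later time, 7 were near Pim3. A difference from the background was not tested. Median folds from 2iL to 96 h were 5.66, 4.79 and 4.49, beside the 5.88, 4.98 and 4.82 of all regions.

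Lifr, which encodes the LIF receptor, carried the strongest region of the group in 2iL and at 48 h. A region inside the gene, 38.5 kb after the first listed start (chr15:7167253-7168677), had a fold of 20.3 (17.0 to 24.1) in 2iL, 13.9 (12.2 to 15.8) at 48 h and 15.4 (12.9 to 18.1) at 96 h. In 2iL, 0.705% of regions were as strong or stronger. A second region inside the gene span, 12.6 kb before that start (chr15:7114536-7117643), had folds of 18.5 (16.1 to 21.0), 19.9 (17.8 to 22.2) and 15.6 (13.0 to 18.5). On reads over the floor, which leaves out the local background, it had 44.4, 39.7 and 21.9, so its ratio of 96 h to 2iL was 0.843 by fold and 0.493 on that scale. It held 6 summits in 2iL, 1 at 48 h and 2 at 96 h. Both regions stayed among the strongest 3% of each list, with between 0.547% and 2.67% of regions as strong or stronger.

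Another Lifr region, upstream of the span and 47.5 kb before the start (chr15:7081409-7082563), went another way. In 2iL its fold was 14.4 (12.5 to 16.5), against 5.21 (4.12 to 6.51) at 48 h and 7.96 (6.17 to 10.1) at 96 h. The 2iL interval overlapped neither later one. On reads over the floor its values were 41.4, 9.39 and 11.1, so it was lower after withdrawal on both scales. The region over the start itself (chr15:7128731-7130107), with the AAGGTCA match shown above, was weak, with folds of 5.25 in 2iL and 4.16 at 48 h, and was not called at 96 h. The other 2 regions of 2iL near Lifr, with folds of 6.19 and 4.97, were called at neither later time, and no region appeared near Lifr later that was not there in 2iL.

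Il6st, which encodes the signalling subunit gp130, had 1 region in all 3 libraries, 1.46 kb before its start in 2iL (chr13:112461886-112462950). In 2iL its fold was 10.6 (8.98 to 12.4), against 13.2 (11.5 to 15.03) at 48 h and 17.1 (14.2 to 20.4) at 96 h. It was the single one of the 11 regions called throughout whose fold was higher at 96 h than in 2iL, and the intervals at these times did not overlap. The order depends on the local background, which was 13.6, 15.8 and 6.26 reads. On reads over the floor the order turned round, with 30.3, 27.3 and 21.0 from 2iL to 96 h. By rank of the fold, 11.3% of 2iL regions were as strong or stronger, 3.46% at 48 h and 1.45% at 96 h. The other Il6st region of 2iL, 50.9 kb before the start (chr13:112412480-112413583, fold 7.70), was called at neither later time.

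Jak1, the kinase that LIFR and gp130 recruit, had no region within 100 kb in 2iL or at 48 h. At 96 h a weak region lay over its start (chr4:101265222-101265995), with its highest summit 469 bp upstream, a fold of 3.74 (2.74 to 4.99) and 44 reads. At 96 h, 77.1% of regions were as strong or stronger. The nearest regions in 2iL and at 48 h lay 123 kb and 124 kb from the gene, at folds of 9.46 and 7.48. Of all protein-coding genes, 1.30% shared this pattern of none in 2iL and at 48 h and at least 1 at 96 h.

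Stat3, the transcription factor of the pathway, had 1 region in 2iL and a different one at 48 h. The 2iL region lay 2.90 kb before the start (chr11:100941963-100942637), with a fold of 5.51 (4.14 to 7.19) and 52 reads. The 48 h region (chr11:100855019-100855805, fold 4.37, 3.22 to 5.79) lay 83.9 kb after the start, inside the neighbouring gene Stat5b. Neither was called at any other time, and none was called within 100 kb of Stat3 at 96 h, where the nearest lay 116 kb from the gene at a fold of 7.72. Both Stat3 regions were near the middle of their lists, with 56.7% and 63.8% of regions as strong or stronger.

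Socs3, the feedback inhibitor that STAT3 induces, had the most regions of the 7 in 2iL and at 96 h, while Pim1 had more at 48 h (7 against 5). The strongest lay 3.48 kb before its start (chr11:117972421-117973437), with folds of 15.4 (13.3 to 17.7) in 2iL, 17.8 (15.8 to 19.9) at 48 h and 14.6 (12.4 to 17.0) at 96 h. The intervals of the 3 libraries overlapped. Its neighbour 6.24 kb before the start (chr11:117974575-117977078) had folds of 7.98 (6.47 to 9.75), 6.12 (5.15 to 7.21) and 4.99 (3.96 to 6.22), with the 96 h interval below that of 2iL. A region 38.8 kb before the start, inside Pgs1 (chr11:118007665-118008833), was nearly as strong as the first in 2iL, with a fold of 14.5 (12.3 to 17.1), and had 5.67 (4.68 to 6.80) at 48 h and 4.57 (3.38 to 6.07) at 96 h. On reads over the floor it had 27.8, 14.1 and 7.87, so the later values were lower on both scales.

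The remaining Socs3 regions were weaker. One at the neighbouring gene Tha1 (chr11:117872894-117873577) was called throughout, with folds of 5.23, 2.91 and 3.04. A region 38.4 kb after the start (chr11:117930514-117931296) was called in 2iL (3.95) and at 96 h (2.28) but not at 48 h. A region 57.5 kb after the start was called at 48 h (chr11:117911484-117912857, fold 7.24, 5.84 to 8.87) and at 96 h (5.72, 4.32 to 7.43) and not in 2iL, with summits 2 bp apart. It was the strongest region near any of the 7 genes that was called after withdrawal and not in 2iL. The 5 regions of 2iL called at neither later time had folds of 4.05 to 7.75, the strongest inside Dnah17 (chr11:118034198-118035674).

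Pim1 encodes a serine/threonine kinase and is a target of STAT3. All its regions had folds below 10, most lay upstream, and 3 of 8 were called in all libraries. The strongest, 51.2 kb before the start (chr17:29438310-29440268), had folds of 9.60 (7.33 to 12.4) in 2iL, 9.12 (7.47 to 11.02) at 48 h and 8.46 (6.57 to 10.7) at 96 h, which overlapped. The regions 85.2 kb and 39.4 kb before the start (chr17:29405222-29405892 and chr17:29450583-29451859) had folds of 6.14, 5.30 and 4.40 and of 3.35, 3.43 and 2.44. For the latter the ratio of 48 h to 2iL was 1.02 by fold and 1.66 by reads over the floor. A region inside the gene, 1.23 kb after its first listed start (chr17:29491467-29492952), had folds of 4.02 (3.04 to 5.21) in 2iL and 3.69 (2.97 to 4.53) at 48 h and was not called at 96 h.

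Pim1 had regions after withdrawal that were not called in 2iL, all of low fold. One 25.2 kb before the start had 3.07 at 48 h (chr17:29464723-29466020) and 2.94 at 96 h, and a further one at 96 h had 2.76 (chr17:29463246-29464570). At 48 h alone, regions had folds of 2.87 (chr17:29398914-29399693) and 1.59 (chr17:29440430-29440672). The last had 22 reads over a background of 13.4 and a −log10 q of 0.156, and lay next to the region 51.2 kb before the start. It counts among the 22 regions of 48 h. The 4 regions of 2iL called at neither later time had folds of 3.97 to 5.93. The strongest of these (chr17:29595699-29596890), inside Tbc1d22b, was near the limit of the rule: its nearest summit lay 99.9 kb from Pim1 and its highest summit beyond 100 kb. The nearest region left out lay 103 kb from Socs3 in 2iL, at a fold of 4.60.

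Pim3 encodes a related kinase. Of its 8 regions of 2iL, 7 were called at neither later time and the other was not called at 96 h. Of all 2iL regions, 45.6% were called at neither later time and 35.0% were called at 96 h. All but the strongest Pim3 region had 2iL folds below 10, and of all such weaker regions 46.2% were called at 48 h and 30.1% at 96 h. A difference of Pim3 from these shares was not tested. The strongest Pim3 region, 66.9 kb before the start (chr15:88794674-88795980), had a fold of 10.8 (8.39 to 13.7) in 2iL and 6.49 (4.95 to 8.36) at 48 h, with 66 and 58 reads. On reads over the floor these were 13.1 and 7.17. The region over the Pim3 start (chr15:88861657-88862705), with the AAGGTCA match shown above, had a fold of 4.25 (3.32 to 5.37) in 2iL alone. That start lies inside the span of the neighbouring gene Gm33049. Another 4 regions of 2iL lay inside the neighbour Ttll8, of which the strongest (chr15:88903948-88904561) had a fold of 7.10.

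After withdrawal, Pim3 had regions near its other end that 2iL lacked. A region 5.72 kb after the start, just past the gene (chr15:88866644-88868526), had folds of 3.92 (3.04 to 4.98) at 48 h and 3.20 (2.41 to 4.16) at 96 h. Beside it a 48 h region 244 bp past the gene (chr15:88865728-88866222) had 4.002. Away from that end, a region 52.0 kb after the start, inside Ttll8, had 3.28 at 48 h (chr15:88913866-88914642). A region 7.97 kb before the start, over the start of Gm33049, had 2.90 at 96 h (chr15:88853853-88855304). All were weak in their lists, where between 72.5% and 93.9% of regions were as strong or stronger.

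**Figure D2:**
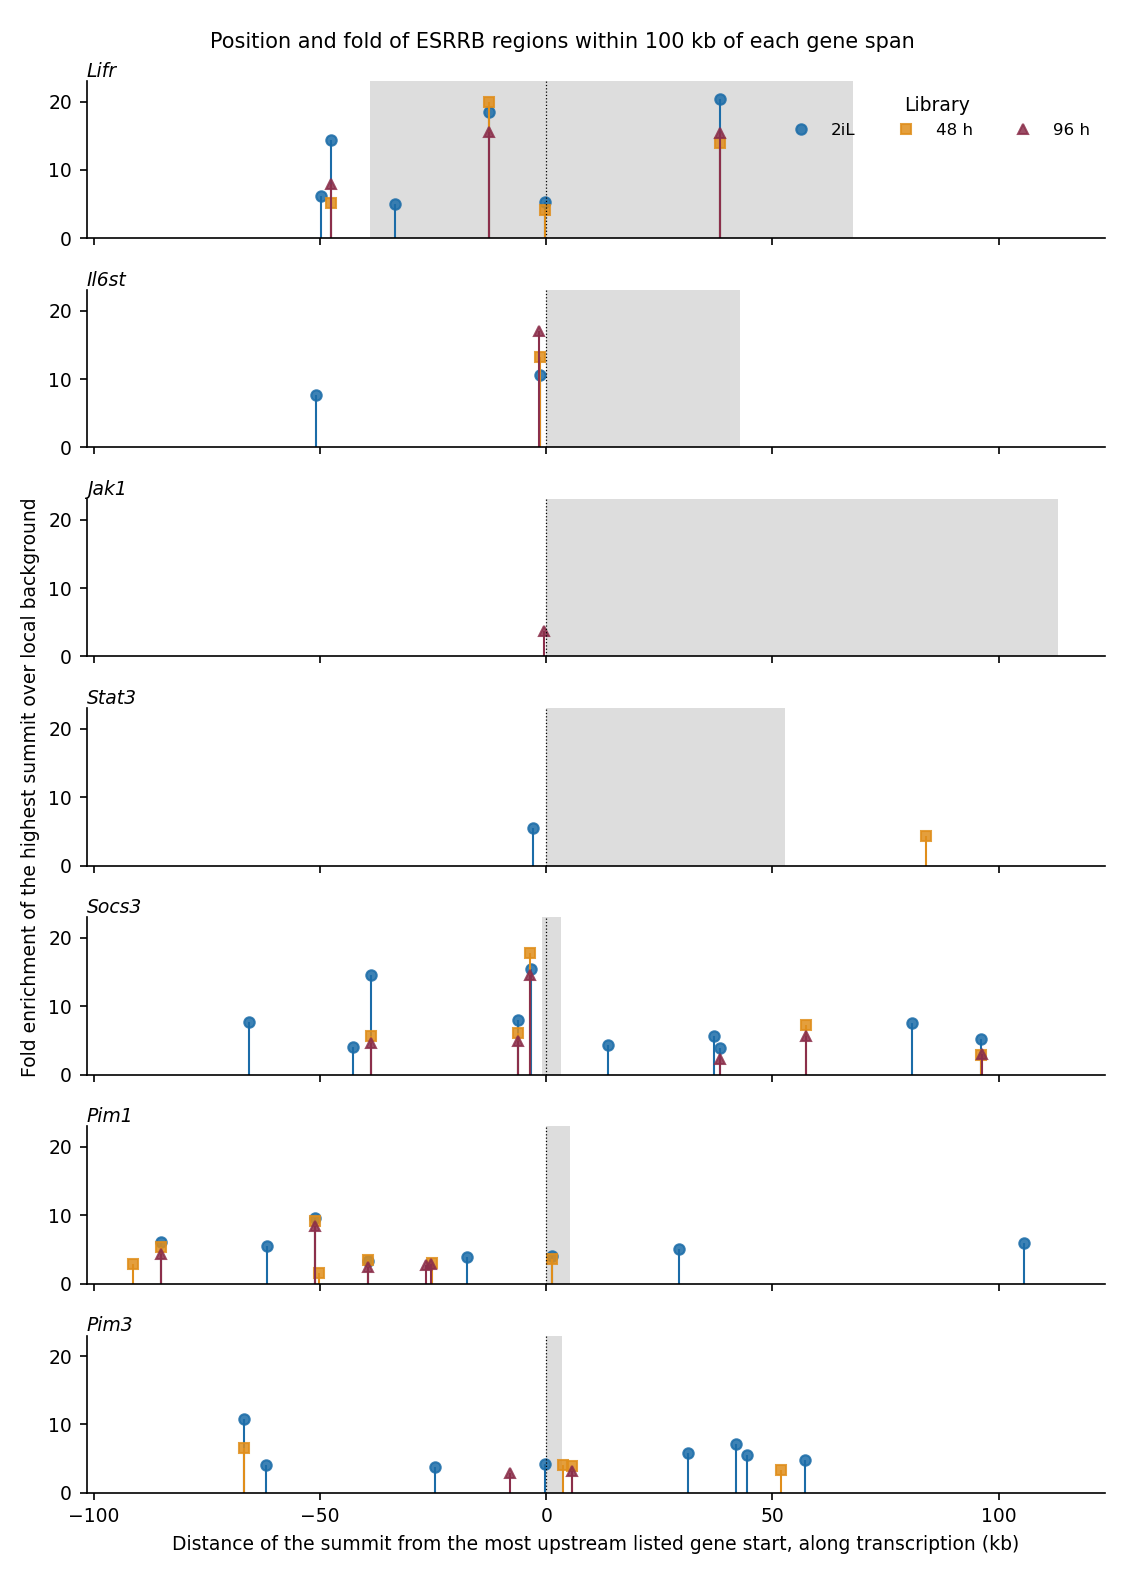
Each panel is 1 gene, with the distance of a region's highest summit from the most upstream listed gene start along transcription (x axis, kb) against its fold (y axis), for 2iL (circles), 48 h (squares) and 96 h (triangles), and the gene span in grey. The tall markers at Lifr, Il6st and Socs3 were called in all 3 libraries, while Pim3 had 8 regions in 2iL and 2 at 96 h, none of them shared.

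The highest summits of places called more than once were compared by position. From 2iL to 48 h the highest summit of the 14 shared regions moved by a median of 21 bp (5 to 53), and 13 of them by at most 50 bp. From 2iL to 96 h the median for 12 regions was 12.5 bp (1 to 105). Over all shared regions the medians were 27 and 30 bp, and 72.9% and 68.9% moved by at most 50 bp. Of the 3 places shared by the later lists without 2iL, the summits lay 2 bp apart at Socs3, 44 bp at Pim3 and 191 bp at Pim1. The 35 regions of 2iL were also somewhat wider than all regions (median 1155 against 993 bp), and 17 of them (48.6%) held more than 1 summit, against 40.4% overall. Only 5 lay inside one of the 7 genes.

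**Figure D3:**
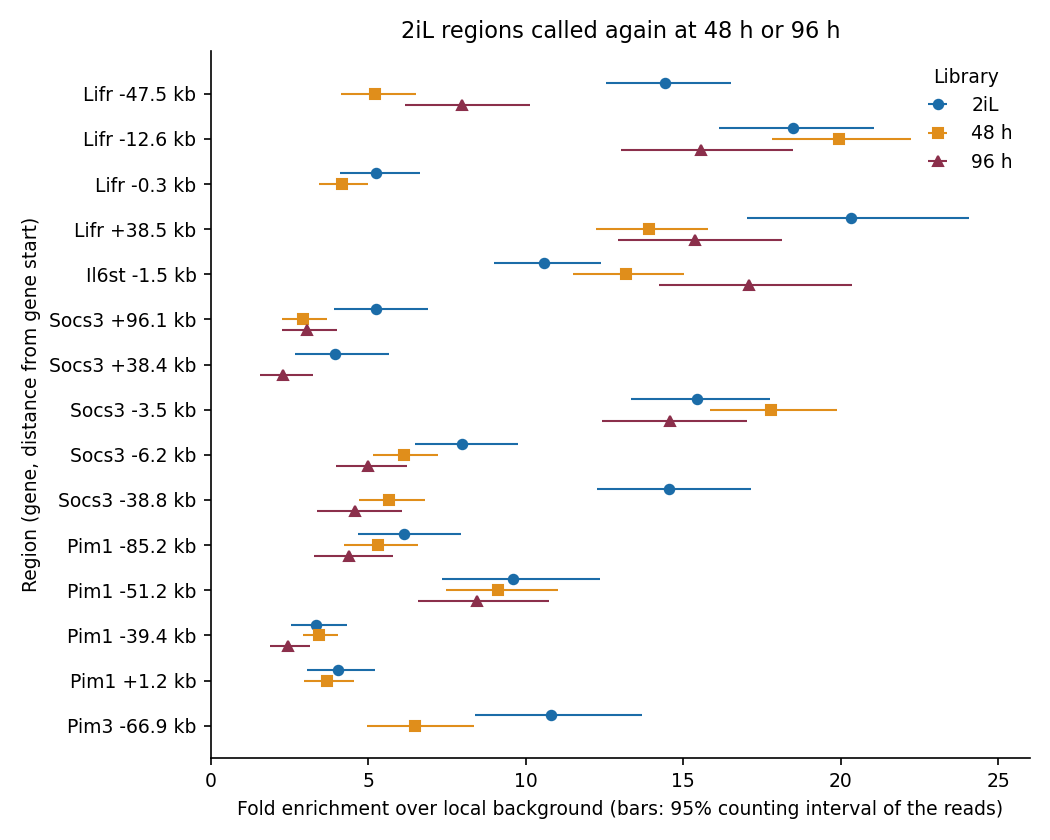
Fold over local background (x axis) of the 15 places called in 2iL and at a later time (y axis, gene and distance of the summit from its start), for 2iL (circles), 48 h (squares) and 96 h (triangles), with 95% counting intervals of the reads as bars. Lifr at 47.5 kb upstream and Socs3 at 38.8 kb upstream sat at 14.4 and 14.5 in 2iL and at 7.96 or less later, while Il6st had its highest value, 17.1, at 96 h.

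In the set of 11 called throughout, the fold was lower than in 2iL for 7 at 48 h and for 10 at 96 h, beside 62.0% and 72.9% of all 4260 places called in all libraries. The median ratio to 2iL was 0.863 at 48 h and 0.728 at 96 h, close to 0.891 and 0.773 for all such places. Counting intervals lay apart and below 2iL for 5 of 14 places at 48 h (background 24.5%) and for 3 of 12 at 96 h (28.7%), and above it for 0 of 14 (6.42%) and 1 of 12 (4.56%). The lowest ratios at both times were those of Socs3 38.8 kb upstream (0.390 at 48 h and 0.315 at 96 h) and Lifr 47.5 kb upstream (0.361 and 0.552).

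Scaling by the floor in place of the local background changed the side of 8 of the 26 ratios. Besides Il6st at both times these were 48 h ratios, among them Lifr 38.5 kb downstream (0.685 by fold and 1.15 by reads over the floor), Lifr 12.6 kb upstream (1.08 and 0.893) and Socs3 3.48 kb upstream (1.15 and 0.969). Both scales put Lifr 47.5 kb upstream (0.227 and 0.268 by reads over the floor at 48 h and 96 h) and Socs3 38.8 kb upstream (0.508 and 0.284) low. At Socs3 the weak regions at Tha1 (0.556 and 0.865 at 48 h) and 38.4 kb downstream (0.578 and 0.925 at 96 h) were nearer to 1 by reads over the floor than by fold. At 96 h all 11 places called throughout were lower than in 2iL by reads over the floor, beside 81.7% of all such places, and at 48 h 8 were (61.7%).

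**Figure D4:**
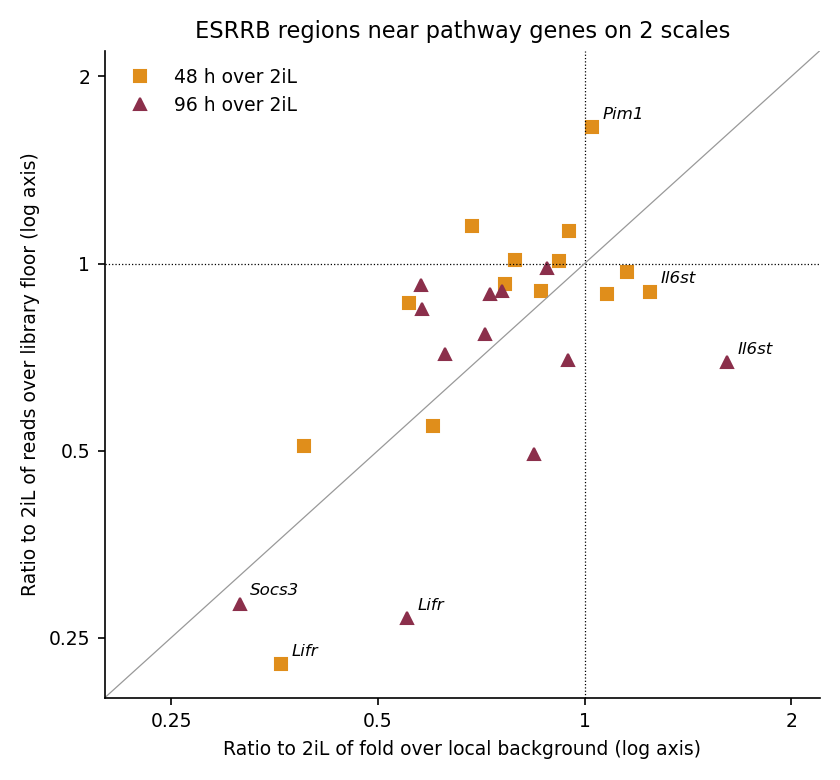
Ratio of a later value to that of 2iL by fold over local background (x axis, log) and by reads over the library floor (y axis, log) for each place called in 2iL and at 48 h (squares) or 96 h (triangles), where the grey line marks equal ratios and the dotted lines a ratio of 1. Il6st at 96 h sat at 1.61 by fold and 0.694 by reads over the floor, and Lifr 47.5 kb upstream was low on both.

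Among 33 other genes of the pathway, a region lay within 100 kb of 32, 29 and 30 in 2iL and at the later times (69.8%, 64.7% and 54.0% of all protein-coding genes). Their 121 distinct regions of 2iL were called at 48 h in 53.7% of cases (44.4 to 62.8) and at 96 h in 39.7% (30.9 to 49.0), within counting error of the background. Of the 32 genes, 19 had fewer regions at 48 h, 6 more and 7 as many. At 96 h 22 had fewer, 3 more and 7 as many. Of all protein-coding genes with a 2iL region, 55.8% and 74.4% had fewer. Osmr, which encodes the oncostatin M receptor, had no region in any library.

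All 7 ligand genes had a region in each library, beside 69.8%, 64.7% and 54.0% of all protein-coding genes. Lif itself and its neighbour Osm, another ligand of the family, shared their strongest 2iL region (chr11:4235614-4237707, fold 12.6), 0.711 kb from Osm and 21.5 kb from Lif, which was called at neither later time. Lif and Osm each had 3, 2 and 1 regions from 2iL to 96 h, with the same highest folds (12.6, 4.79 and 4.05), so they are not separate cases. The strongest near Il11 had folds of 16.7, 20.8 and 24.1 and that near Cntf 21.8, 12.1 and 17.1. Of the receptors, Il6ra had the strongest region of the list in 2iL (chr3:89863257-89866372, fold 22.6), at 7.91 at 48 h and 4.09 at 96 h, and its count went from 9 to 5 and 2.

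Among kinases and adaptors, all 6 had a 2iL region and only that of Tyk2 was above a fold of 10 (15.5), 89.1 kb from the gene. Stat5a and Stat5b shared a strongest region (fold 10.9) and are neighbours of Stat3, so their counts overlap with it. Of the inhibitors, Pias3 reached 14.0 in 2iL in a region called at neither later time, while other regions near it reached 13.9 at 48 h and 9.94 at 96 h. Of the 8 target genes of STAT3, the strongest 2iL folds at or above 10 were those near Klf4 (18.5), Sgk1 (13.5), Tfcp2l1 (12.7), Bcl3 (11.7) and Klf5 (10.4), and all 5 regions were called at both later times. Their folds at 96 h were 30.3 for Klf4, 6.59 for Sgk1, 6.57 for Tfcp2l1, 4.32 for Bcl3 and 7.31 for Klf5. Of all 2iL regions with a fold of at least 10, 80% were called at 48 h and 67.2% at 96 h. The 42 distinct 2iL regions near the 8 target genes were called at 48 h in 57.1% of cases (41.0 to 72.3). At 96 h the share was 33.3% (19.6 to 49.5), and both intervals held the 50.7% and 35.0% of all 2iL regions.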

How the data were processed

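ESRRB ChIP-seq was deposited as 1 peak list for each of 3 antibody libraries (2iL, 48 h and 96 h). Per the labels' protocols, fixation used 1% formaldehyde and library input was 10 ng of DNA. Per the submitters' processing notes, the tools were MACS2, BWA, Picard, SAMtools and bcl2fastq 2.20.0.422, on mm10. The sources used here do not give how each was run, the control or the threshold. The authors deposited for each summit a fold enrichment (a ratio to local background, with a pseudocount of 1), a p-value and a q-value, both as −log10, and a score capped at 1000, which was not used.

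Intervals were made unique, and the highest summit gave the fold. Reads were solved from fold and p under a Poisson model and were whole to within 0.05 of a step for 100% of summits, and the solver was tested on simulated data. Regions that overlapped by at least 1 bp were taken as the same, checked with bedtools 2.31.1. Shares carry exact Clopper-Pearson 95% intervals for counting error, folds the exact Poisson interval of the reads with the background taken as known. Genes came from RefSeq on GRCm38.p6 (the assembly of mm10), and gene starts from its promoter table. All 33 genes of the wider list matched. Exons and introns were not told apart.

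The genes and lists were chosen with earlier results of these data known. Named were all 7 genes with, per library, the strongest region, those called in all libraries, those called later and not in 2iL and the strongest 2iL region called at neither later time. Other pathway genes were named where the highest 2iL fold was at least 10 or no library had a region. Other settings tried were lists cut to equal length, a q of 1e-05 or less, windows of 50 kb and 10 kb, the highest summit only, the nearest protein-coding gene only, overlap of 50% of both regions and summits within 200 bp. Scaling by the floor was added after the data were seen.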

Additional observations from a re-analysis of the deposited data

How the results depend on the processing

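No paired analysis was possible because each condition had 1 library. With a q of 1e-05 or less, a 50 kb window or the highest summit only, all 11 results stayed within 1.5 times the main count or inside the counting interval of the main share, and so did both shares with an overlap of 50% of both regions or summits within 200 bp. Within 10 kb, regions near the 7 genes numbered 11, 10 and 9 from 2iL to 96 h, and the 2iL regions called later came to 72.7% (8 of 11) at 48 h and 54.5% (6 of 11) at 96 h, against 51.4% and 35.7% of all 2iL regions that near a gene. Counted for the nearest protein-coding gene only, there were 17 in 2iL and 14 at 48 h, with 58.8% (10 of 17) and 52.9% (9 of 17) called later. With lists of equal length by fold (7018 regions), 17 were left in 2iL and 12 at 48 h, and the shares were again 58.8% and 52.9%, against 54.8% and 47.8% of all. Genes of the wider list with a region numbered 16, 10 and 10 within 10 kb and 16, 9 and 14 by nearest gene. Fewer regions enter under these settings by construction. Within 100 kb the share at 48 h was 40% (23.9 to 57.9), an interval that held the 50.7% of all 2iL regions. Within 10 kb and with lists of equal length, the share at 48 h was above the background of the same setting. By nearest gene no such background was computed. These 3 shares rest on 17 regions or fewer and carry no interval here.

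Of the 26 ratios between libraries, 8 moved beyond the counting interval when reads over the floor replaced the fold, and 8 changed side. Median reads at a summit were 51, 68 and 45 from 2iL to 96 h. The part of depth in which regions were called was not tested.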

Other observations

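Several regions near the 7 genes overlapped promoter windows of other RefSeq genes. A 48 h region 25.2 kb before Pim1 and a different 96 h region 26.7 kb before it overlapped a window of the long noncoding RNA gene Gm36199. Neither was called in 2iL and neither covered the start of Gm36199. The 96 h interval of the first region did not reach that window. The region inside Pim1, called in 2iL and at 48 h, lay over the start of Gm26885, a long noncoding RNA gene on the other strand, and the 96 h region 7.97 kb before Pim3 over the start of the protein-coding gene Gm33049. An AAGGTCA was found before the start of Tbc1d22bos, 36 bp from the highest summit of the 2iL region there (fold 5.93), and TTCTGTGAA, a TTCNNNGAA match, before Gm38643 in a 2iL region near Pim3, 397 bp from its summit. The windows of Gm36199, Gm26885 and Gm33049 held none of the 4 motifs.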
